A study of Mus musculus with 8 samples.

Results

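The genes of the cytosolic ribosomal proteins were read from RNA of sorted epithelial cells of the cheek lining (buccal epithelium) of mice aged 1 week and 8 weeks. The members were the protein-coding rows whose gene name has the form of a ribosomal protein of the large subunit (Rpl, Rplp0 to Rplp2) or of the small subunit (Rps, Rpsa). This rule found 83 genes among 23355 rows, 51 of the large and 32 of the small subunit. It uses the names alone and no measured value. Each age group held 4 wild type C57BL/6 mice kept free of specific pathogens and given no treatment, with 1 library per mouse. The epithelium was lifted off with dispase II, the cells were sorted by flow cytometry, and total RNA libraries made for low input were depleted of ribosomal RNA. The labels name neither the sex of the mice nor the markers of the sort.

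A ribosome is built from a small subunit, which reads the messenger RNA, and a large subunit, which joins the amino acids. Each subunit carries its own set of proteins on a core of ribosomal RNA, in nearly all cases a single copy of each per ribosome, so that cells make the proteins in matched amounts. In mammals the messenger RNAs of these proteins begin with a run of pyrimidines (C or U), the 5′ terminal oligopyrimidine tract, through which growth signals set how strongly they are translated. In stratified epithelium, protein synthesis is known to vary between the dividing basal cells and the layers that differentiate above them.

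The ribosomal protein genes stood at a lower level at 8 weeks than at 1 week as a group, by a similar small amount in nearly every gene. Of the 83, 81 had enough counts to be tested, and all 81 had a log2 fold change (8 weeks over 1 week) below 0, against 50.2% of the 14533 genes tested. Their median log2 fold change was −0.43, which corresponds to 74.0% of the 1 week level, and that of all genes tested was 0.00. Single genes ran from −0.67 for Rpl41 to −0.15 for Rps26, and their interquartile range was 0.13, against 0.48 for all genes tested. With edgeR's quasi-likelihood test, 16 members passed an adjusted p of 0.05 (Benjamini-Hochberg over all genes tested) as lower at 8 weeks and 0 as higher. These 16 are 19.8% of the members tested, and of all genes tested 3.22% were called lower, 3.33% higher and 6.55% either way. At an unadjusted p under 0.05, 73 members were lower and 0 higher, against 14.3% of all genes tested as lower. In 32 members (39.5%) every 8 weeks library lay below every 1 week library, as it did in 7.11% of all genes tested, and in 0 members did it lie above, against 7.69%. With bulk samples, fewer cells of a type and less RNA per cell cannot be told apart.

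The number of calls varied with the tool. The authors' deposited table has 41 of the 83 members at an adjusted p under 0.05 as lower and 0 as higher, where 3.28% of its genes were lower. DESeq2 run on the counts called 57 members lower (7.59% of all genes), and limma-voom, used here with a weight estimated for each library, 42 (5.97%).

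The calls also depend on single libraries and on a correction for transcript length. Without 1 week 1, without 8 weeks 1 or without 8 weeks 3, 0 of the 16 stayed called. In these fits 0.394%, 0.446% and 0.291% of all genes were called lower. At an unadjusted p under 0.05, 49, 52 and 49 members were lower there, against 1506 of 14973, 1540 of 14796 and 1497 of 14796 genes. Without 8 weeks 4 only 1 of the 16 stayed called (1.16% of all genes lower). Without 8 weeks 2 the test called 54 members lower (6.98% of all genes). With transcript length and GC content corrected, the median log2 fold change of the members was −0.20 and edgeR called 0 of them, with 32 lower and 0 higher at an unadjusted p under 0.05 (11.5% of all genes lower in that fit).

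**Figure D1:**
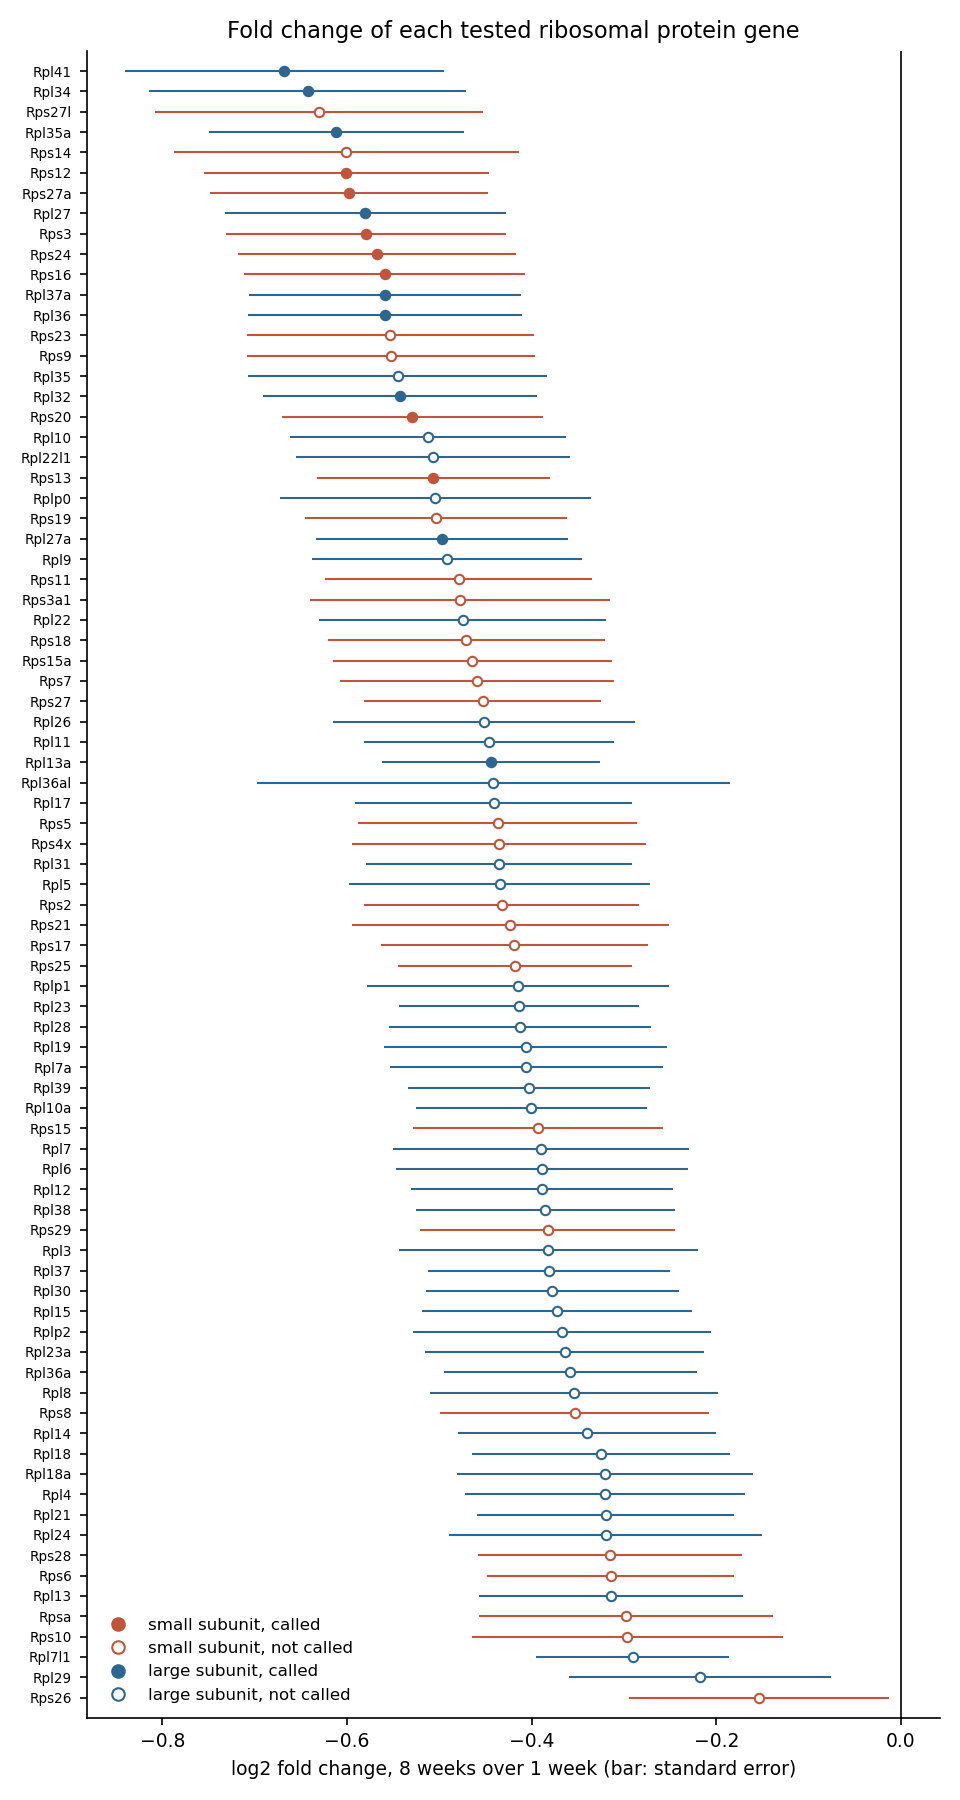
Log2 fold change (8 weeks over 1 week, horizontal axis) of each of the 81 tested ribosomal protein genes, with its standard error as a bar. Filled points passed an adjusted p of 0.05, open points did not, and all 81 points lie to the left of 0, from −0.67 for Rpl41 to −0.15 for Rps26.

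The lower level was carried by all members in the same libraries. Ribosomal protein genes took 9.62%, 8.64%, 8.57% and 9.11% of all counts in 1 week 1 to 1 week 4. They took 6.39%, 8.55%, 5.98% and 7.68% in 8 weeks 1 to 8 weeks 4. The 8 weeks libraries all lay below the 1 week libraries, but 8 weeks 2 missed the lowest 1 week library by a narrow margin, while 8 weeks 1 and 8 weeks 3 were far below. The means were 8.99% ± 0.487 (SD, n = 4) at 1 week and 7.15% ± 1.18 (SD, n = 4) at 8 weeks. The 95% Wilson interval was 8.55% to 8.59% for 1 week 3 and 8.53% to 8.56% for 8 weeks 2. These 2 intervals overlap, which is no test of the difference between the libraries. The separation of the ages in the share of all counts rests on the order of these 2 libraries. That order was not tested and is not shown to be beyond counting error. Reads made by PCR are not independent molecules, so these intervals cover counting error only. Of the counts on protein-coding genes alone, the members took 9.53% in 1 week 3 and 9.28% in 8 weeks 2.

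**Figure D2:**
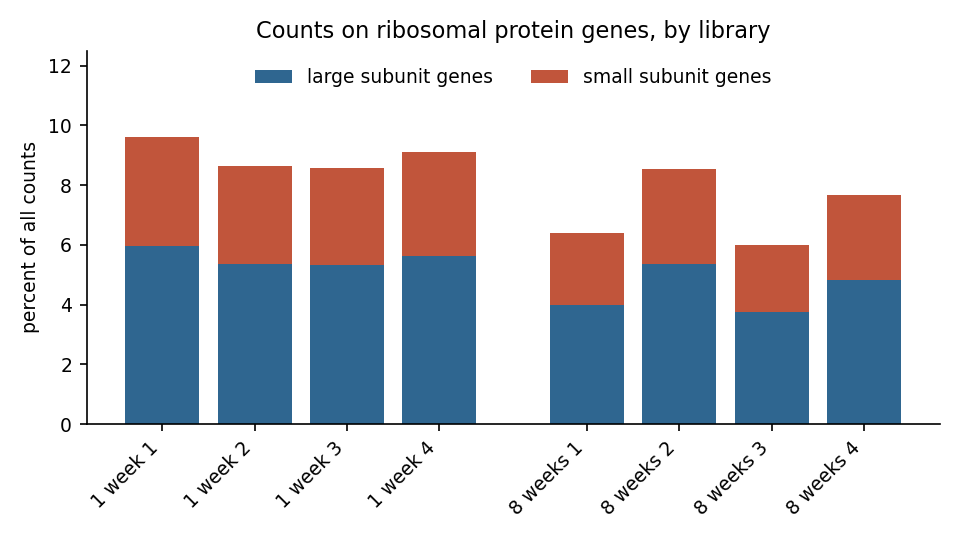
Percent of all counts of a library (vertical axis, from 0) that fell on large subunit and small subunit genes, stacked, for each of the 8 libraries. The 1 week libraries stand between 8.57% and 9.62% and the 8 weeks libraries between 5.98% and 8.55%.

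Gene by gene the picture was the same. Each of the 81 members had its lowest level in 8 weeks 1 (46 genes) or 8 weeks 3 (35 genes), and its highest in 1 week 1 (74 genes) or 1 week 4 (7 genes). In 8 weeks 1 and in 8 weeks 3 all 81 members lay below every 1 week library, in 8 weeks 4 it was 67 and in 8 weeks 2 it was 34. The median difference of the members from their own 1 week mean, on the scale of log2(CPM + 1) with CPM a gene's counts scaled to the TMM-adjusted library total, was 0.26, −0.12, −0.15 and 0.00 in 1 week 1 to 1 week 4. It was −0.63, −0.17, −0.63 and −0.31 in 8 weeks 1 to 8 weeks 4. The libraries within an age spread over about as wide a range as the ages lay apart, and 8 weeks 2 lay close to 1 week 2 and 1 week 3.

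**Figure D3:**
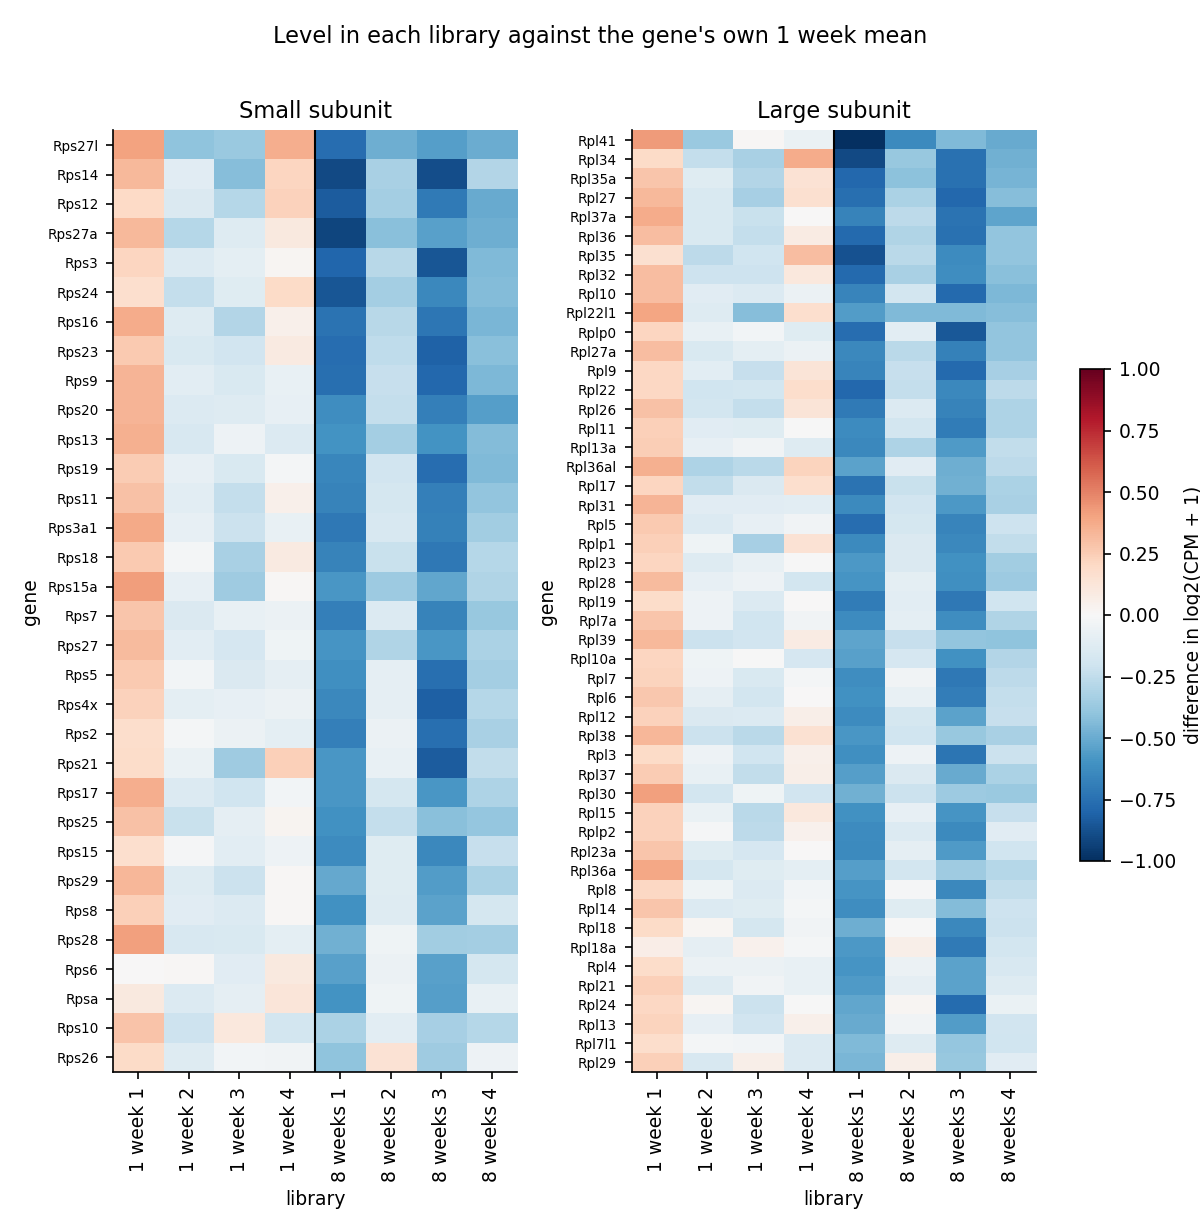
Difference of each tested gene (rows, small subunit left, large subunit right) in each library (columns) from its own 1 week mean, in log2(CPM + 1), with red above and blue below. The columns of 8 weeks 1 and 8 weeks 3 are blue throughout and that of 1 week 1 is red in nearly every row, while 8 weeks 2 is pale.

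Among the large subunit genes 9 of 49 tested were called lower, with a median log2 fold change of −0.41 over the 49. Rpl41, which encodes the smallest ribosomal protein, a short basic peptide, had the lowest fold change of all members and lies on chromosome 10 from 128548114 to 128549305 (GRCm38, as all positions here). Its levels were 1336, 771, 1002 and 951 CPM in the 1 week libraries and 479, 641, 733 and 702 CPM in the 8 weeks libraries. The groups did not overlap, with 8 weeks 1 lowest and 1 week 1 highest, and the log2 fold change was −0.67 (SE 0.17, edgeR adjusted p = 0.0414). Rpl34, another protein of the large subunit (chromosome 3, 130726831 to 130730398), stood at 1714, 1272, 1203 and 1947 CPM at 1 week. At 8 weeks it stood at 805, 1156, 894 and 1075 CPM. All 8 weeks values were below the 1 week values, at a log2 fold change of −0.64 (SE 0.17, edgeR adjusted p = 0.0441).

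Rpl35a, one of the genes mutated in human Diamond-Blackfan anaemia, a failure of red cell formation, had the smallest adjusted p of all members and lies on chromosome 16 from 33056453 to 33060189. It was at 500, 380, 337 and 456 CPM at 1 week and at 240, 310, 245 and 299 CPM at 8 weeks. These groups did not overlap and the log2 fold change was −0.61 (SE 0.14, edgeR adjusted p = 0.0285). The other called genes of the large subunit were Rpl27, Rpl37a, Rpl36, Rpl32, Rpl27a and Rpl13a, with log2 fold changes from −0.58 for Rpl27 to −0.44 for Rpl13a. Rpl13a, in human myeloid cells also known as a part of a complex that silences inflammatory messenger RNAs, shares 35.4% of its exon bases with other annotated genes on its strand, so its count is less certain.

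Among the small subunit genes 7 of 32 were called lower, with a median log2 fold change of −0.46. Rps12 (chromosome 10, 23785183 to 23787275) was at 2421, 1903, 1730 and 2468 CPM at 1 week and at 1182, 1664, 1287 and 1486 CPM at 8 weeks. Its groups did not overlap, at a log2 fold change of −0.60 (SE 0.16, edgeR adjusted p = 0.0409). Rps27a, which is made as a fusion to ubiquitin that is then cut off (chromosome 11, 29545846 to 29548109), was at 1197, 784, 872 and 1021 CPM at 1 week and at 506, 716, 656 and 683 CPM at 8 weeks. Here too every 8 weeks library was below every 1 week library, at −0.60 (SE 0.15, edgeR adjusted p = 0.0378).

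Rps3, a protein at the entry of the messenger RNA channel that has also been linked to DNA repair (chromosome 7, 99477896 to 99483738), was at 2625, 2055, 2118 and 2299 CPM at 1 week and at 1308, 1864, 1249 and 1667 CPM at 8 weeks. The groups did not overlap, and the log2 fold change was −0.58 (SE 0.15, edgeR adjusted p = 0.0422). Rps24, Rps16, Rps20 and Rps13 were the other called small subunit genes, from −0.57 for Rps24 to −0.51 for Rps13. Of the 16 called genes of both subunits, 14 had no overlap between the ages, and Rpl27 and Rps16 had some. Just outside the threshold lay Rps23 (adjusted p = 0.05005), Rps19 (0.0506), Rps27l (0.0509) and Rps9 (0.0516) in edgeR's test, so the line between called and not called genes follows no gap in the values.

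The genes with the smallest fold changes were members of both subunits. Rps26, a protein at the exit of the messenger RNA channel (chromosome 10, 128624534 to 128626747), was at 1375, 1103, 1186 and 1174 CPM at 1 week and at 909, 1335, 941 and 1162 CPM at 8 weeks. The ages overlapped, with 8 weeks 2 above 3 of the 1 week libraries, at a log2 fold change of −0.15 (SE 0.14, edgeR adjusted p = 0.5). Rpl29 was at 1282, 973, 1134 and 989 CPM at 1 week and at 791, 1133, 834 and 1005 CPM at 8 weeks, also with overlap, at −0.22 (SE 0.14, edgeR adjusted p = 0.332). Rpl7l1, Rps10 and Rpsa followed at −0.29, −0.30 and −0.30, and none of these 5 passed in edgeR, DESeq2 or limma-voom. Rps10 shares 20.6% of its exon bases with a read-through gene (RPS10-NUDT3) on its strand and had only 12.1 CPM at 1 week.

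The subunits kept a nearly fixed proportion in every library. Counts on small subunit genes, divided by counts on large subunit genes, gave 0.614, 0.609, 0.607 and 0.623 at 1 week. At 8 weeks they gave 0.604, 0.595, 0.599 and 0.593. All 8 weeks ratios lay below all 1 week ratios, with means of 0.613 ± 0.00678 and 0.598 ± 0.00490 (SD, n = 4 each). The difference of −0.0156 is small beside the difference in the share itself, and no p is given for a sum over members. The higher share of small subunit genes called (7 of 32 against 9 of 49) was not tested.

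By place in the ribosome, from groups drawn up after the values were known, no group held more than 1 gene called by edgeR. For comparison, of all 81 tested members edgeR called 16, DESeq2 57 and limma-voom 42 lower. Of all genes they called 3.22%, 7.59% and 5.97% lower. No test compared the places. The 3 proteins of the stalk that recruits elongation factors (Rplp0, Rplp1, Rplp2) had log2 fold changes from −0.50 to −0.37, with 0 called by edgeR, 2 by DESeq2 and 1 by limma-voom. Rpl5 and Rpl11, which carry the 5S RNA into the large subunit and bind the p53 regulator Mdm2 when assembly fails, had −0.43 and −0.45. In both of these genes the ages did not overlap, and neither passed edgeR's test (adjusted p = 0.107 and 0.0643), while both passed that of DESeq2 (0.0274 and 0.0121). Rpl4, Rpl17 and Rpl39, which line the tunnel through which the new chain leaves, ran from −0.44 to −0.32, and the 6 genes at the rim of its exit from −0.55 to −0.36. In edgeR 0 of either were called, while DESeq2 called 2 of the 3 and 5 of the 6. Rps2, Rps3 and Rps9 at the messenger RNA entry ran from −0.58 to −0.43, with Rps3 called by edgeR and all 3 by DESeq2. The 5 genes at the messenger RNA exit covered the widest span, from −0.60 for Rps14 to −0.15 for Rps26, with 0 called by edgeR and 3 by DESeq2.

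The rule named the 3 genes with the largest counts in each subunit, of which Rps24 and Rps3 were called by edgeR. Rpl4 was at 4175, 3531, 3520 and 3492 CPM at 1 week and at 2441, 3529, 2535 and 3282 CPM at 8 weeks, where 8 weeks 2 lay within the 1 week range. Its log2 fold change was −0.32 (SE 0.15, edgeR adjusted p = 0.188). Rpl5 had 3125 CPM at 1 week and 2312 CPM at 8 weeks as means, and Rplp0, the base of the stalk, had 3066 and 2162 CPM. Neither was called by edgeR, while DESeq2 run on the counts called both (adjusted p = 0.0274 and 0.0123). Rpsa, a small subunit protein also described as a laminin receptor, had 3971, 3379, 3489 and 4041 CPM at 1 week. At 8 weeks it had 2450, 3601, 2529 and 3528 CPM, so that 8 weeks 2 and 8 weeks 4 lay within the 1 week range (log2 fold change −0.30, SE 0.16, edgeR adjusted p = 0.240).

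Divided by transcript length, the level of the tested members at 1 week had a median of 1289 CPM per kilobase, and at 8 weeks of 928 CPM per kilobase. The top of the per-length order at 1 week was Rplp1 with 5388 CPM per kilobase, followed by Rps12 with 4313. The lowest was Rpl36al with 10.9 CPM per kilobase. Of the 81 tested members, 76 had at least 100 CPM at 1 week. The other 5 included Rpl24, with 31.7 CPM at 1 week and 25.4 CPM at 8 weeks, which shares 47.0% of its exon bases with the annotated gene Gm28037 on the same strand. Reads that fall on both genes may have been left out of such a count, so it is no measure of the gene's full level.

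Several members have a related copy elsewhere in the genome, and 5 such copies could be set against their parent gene. For Rps27l, a copy of Rps27 that p53 induces, each library held 11.2 to 18.3 counts per 100 counts of Rps27. Rps27l was at 102, 58.0, 59.0 and 99.3 CPM at 1 week and at 44.96, 54.4, 52.0 and 54.1 CPM at 8 weeks. The ages did not overlap, with 1 week 1 and 1 week 4 far above the rest, at a log2 fold change of −0.63 (SE 0.18, edgeR adjusted p = 0.0509). Rps27 itself had −0.45 (SE 0.13, edgeR adjusted p = 0.0518). The log2 ratio of copy to parent differed by −0.14 between the ages (exact two-sided permutation test over 8 libraries, p = 0.6, adjusted over 5 pairs 0.893).

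Rpl22l1, which is known to be repressed by its parent Rpl22, held 3.85 to 5.32 counts per 100 of Rpl22. It was at 90.9, 62.8, 51.0 and 77.5 CPM at 1 week and at 46.4, 50.6, 50.5 and 51.0 CPM at 8 weeks. The highest 8 weeks value and the lowest 1 week value met at 51.0 CPM. Its ratio to Rpl22 differed by 0.01 (exact permutation p = 0.943, adjusted 0.943). Rpl7l1 held 6.96 to 9.47 counts per 100 of Rpl7, with a ratio that differed by 0.12 (exact permutation p = 0.314, adjusted 0.786). Rpl36al, a copy of Rpl36a that shares 24.5% of its exon bases with the gene Gm49383, held 0.972 to 1.47 per 100, with a difference of −0.07 (exact permutation p = 0.714, adjusted 0.893). A p that misses the threshold does not show that copy and parent kept the same ratio.

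Rps4l, a copy of the X-linked gene Rps4x, was called lower at 8 weeks and was down to a few counts. It is no member, since the table types it as a transcribed processed pseudogene (ENSMUSG00000063171, GRCm38 chromosome 6, 148354656 to 148355598, plus strand). Its 789 base transcript aligns to 783 bases of the Rps4x coding sequence with 79.9% of the columns identical. It had 59, 144, 65 and 61 counts in the 1 week libraries and 3, 5, 6 and 1 counts in the 8 weeks libraries. Every 8 weeks library was far below every 1 week library, and 1 week 2 was the highest. The means were 6.70 ± 2.76 CPM and 0.249 ± 0.157 CPM (SD, n = 4 each), at a log2 fold change of −4.72 (SE 0.46, edgeR adjusted p = 0.00043). Among all 14533 genes tested this was the lowest fold change.

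Rps4x itself went from a mean of 1346 CPM to one of 996 CPM, at −0.44 (SE 0.16, edgeR adjusted p = 0.0993). Per 100 counts of Rps4x, Rps4l had a mean of 0.509 at 1 week and 0.0265 at 8 weeks. The log2 ratio differed by −4.26 (exact two-sided permutation p = 0.0286, the smallest that 4 against 4 allows, 0.143 when adjusted over 5 pairs). Rps4l stayed called with each library left out in turn (log2 fold change −5.02 to −4.39) and after the correction for length and GC (−4.52, edgeR adjusted p = 0.00101). Reads of such a copy can also match its parent or other copies, and how those were counted is not given in the sources used here.

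**Figure D4:**
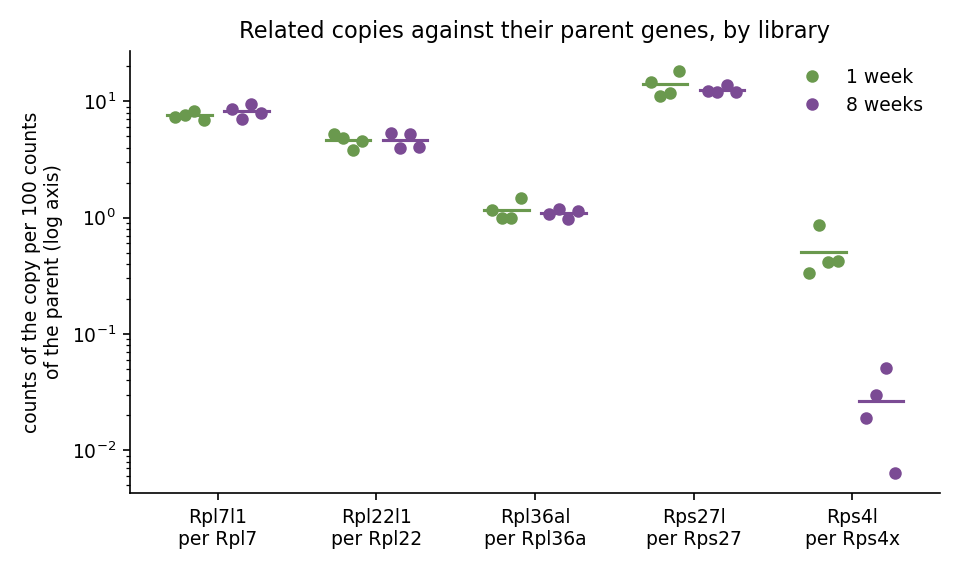
Counts of a related copy per 100 counts of its parent gene (vertical log axis) in each library of 1 week and 8 weeks, with the mean of each age as a line. The 4 pairs on the left overlap between the ages, and for Rps4l all 8 weeks libraries lie below all 1 week libraries.

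The remaining copies were hardly detected. Rpl3l, which is known from heart and skeletal muscle, had 3, 5, 2 and 2 counts at 1 week and 4, 4, 18 and 7 counts at 8 weeks. Rpl39l, known from testis, had 15 counts in 1 week 4 and 0 in each of the other 7 libraries. Neither had enough counts to be tested. Rpl10l, a copy of Rpl10, had no row of that name in the deposited counts, so it could not be set against its parent. The coding sequence of Rpl39l is 85.0% identical to that of Rpl39, and that of Rpl3l is 73.2% identical to that of Rpl3.

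Pyrimidine runs near the annotated transcription start can be seen in the promoter windows. RefSeq promoters (GRCm38.p6, 250 bases before to 50 after the start) were at hand for 63 of the 83 members, and 25 bases on each side of the start are shown for 5 of them. Capitals mark the longest run of C and T within 20 bases of the start. Where a gene has several promoters, the one with the longest run was taken for the windows and run lengths. The first 2 are called genes of the large subunit, Rps26 has the smallest fold change, and Rps27 and Rps27l are a parent and its copy. They lie at chr16:33056457-33056506 (plus strand), chr3:130730313-130730362 (minus), chr10:128626482-128626531 (minus), chr3:90213624-90213673 (minus) and chr9:66946061-66946110 (plus).
Rpl35a: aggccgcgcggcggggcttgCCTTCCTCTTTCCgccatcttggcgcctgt
Rpl34: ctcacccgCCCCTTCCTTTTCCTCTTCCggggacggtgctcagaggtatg
Rps26: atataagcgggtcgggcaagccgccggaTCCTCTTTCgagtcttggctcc
Rps27: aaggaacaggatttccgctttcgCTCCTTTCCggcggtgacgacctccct
Rps27l: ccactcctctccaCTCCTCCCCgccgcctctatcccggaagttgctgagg

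The run was 13 bases long in Rpl35a and 20 in Rpl34, against 9 each in Rps26, Rps27 and Rps27l. Rpl35, Rpl28, Rps15a and Rpl22l1, not shown and not called by edgeR, had runs of 18, 11, 10 and 10 bases. The run spans the annotated start in Rpl35a, Rpl34 and Rps27, and begins at base 4 of the transcript in Rps26. In Rps27l it begins 12 bases before the start and ends before it. A run of at least 8 C or T within 20 bases of the start was held by 47.6% of the 63 members and by 18.4% of 27025 genes. Here a gene counts when any of its promoters holds the letters. The letters CTTCCGG, on either strand of the 300 base window, were in 41.3% of members and in 9.93% of all these genes. The letters TCTCGCGA, also on either strand, were in 17.5% and 1.13%, while TATAAA on the sense strand was in 9.52% and 9.77%. CTTTCC on the sense strand, which can overlap a pyrimidine run, was in 41.3% and 16.01%. These motifs were chosen after the sequences had been looked at, and a match is a description, not a bound site. The median log2 fold change was −0.43 in 30 tested members that hold the run and −0.45 in 31 that do not.

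The members were also described by features of the gene. The 30 members that hold a small nucleolar RNA within the gene, which guides changes of ribosomal RNA, had a median log2 fold change of −0.41, and the other 51 had −0.44, with 8 called in each. The 4 members on the X chromosome (Rpl10, Rpl36a, Rpl39 and Rps4x) had a median of −0.42. In edgeR 0 of them were called and all 4 were lower at an unadjusted p under 0.05. DESeq2 called 3 of the 4 and limma-voom 2, against 57 and 42 of all 81 tested members. In 19 members that overlap an exon on the opposite strand the median was −0.42, against −0.44 in 62 without such overlap. The 191 rows named as pseudogenes of ribosomal proteins held 0.228% to 0.304% as many counts as the members in each library.

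The messenger RNAs of ribosomal proteins are short, and length moved with the result. The tested members had a median transcript length of 774 bases, against 2910 for all tested protein-coding genes, and 75 of the 81 fell into the shortest of 5 length classes (198 to 1660 bases). The annotated transcripts used for Rps15a (5130 bases) and Rps20 (3706 bases) are long for such genes, and their corrected fold changes (−0.58 and −0.56) rest on these doubtful lengths. In that class the members had a median log2 fold change of −0.42, while 2381 other genes had −0.24 with 6.89% called lower. Among 261 others in the class with at least 100 CPM the median was −0.32, with 9.20% called lower. The slope of log2 level on length, per doubling of length, was −0.14, −0.04, −0.05 and −0.06 in 1 week 1 to 1 week 4, and 0.15, −0.01, 0.12 and 0.02 in 8 weeks 1 to 8 weeks 4. The libraries with the lowest levels of ribosomal protein genes, 8 weeks 1 and 8 weeks 3, had the highest slopes, and 1 week 1 had the lowest slope and the highest levels.

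With a smooth trend of each library on length and GC content taken out, 78 of the 81 members kept a log2 fold change below 0. The median was then −0.20 (−0.22 for the small and −0.18 for the large subunit), and 0 members were called while 1.5% of all genes were called lower. With the trend fitted on the other genes alone the median was −0.21, again with 0 called. Rps26, Rps28 and Rpl29 turned to 0.12, 0.01 and 0.01 after correction. A trend on length that belongs to age and one that belongs to single libraries cannot be told apart here, and the correction removes both.

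**Figure D5:**
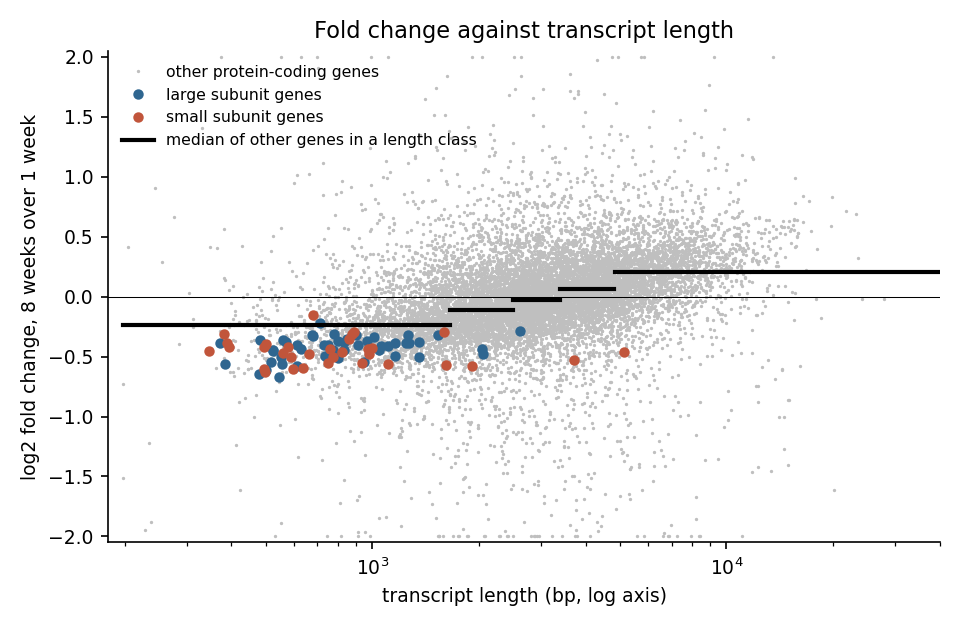
Log2 fold change (8 weeks over 1 week, vertical axis, values beyond 2 in either direction drawn at the edge) against annotated transcript length (log axis) for protein-coding genes. Of the 81 ribosomal protein genes 75 lie in the shortest class, at a median of −0.42, where the other genes have a median of −0.24 (black line).

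Values are given for 2 of 3 genes listed as ribosomal proteins that the name rule leaves out. Fau, whose product is a ubiquitin-like protein fused to Rps30, had a log2 fold change of −0.39, and Rack1, a signalling scaffold on the small subunit, had −0.44. Neither was called by edgeR (adjusted p = 0.0968 and 0.0860), with 2 of the 3 lower at an unadjusted p under 0.05. DESeq2 called both lower, and limma-voom called Rack1. The proteins of the mitochondrial ribosome, a separate machine that translates the mitochondrial genome, were also below 0 in all 77 genes, at a median of −0.33. Of these, 10 were called lower (13.0%, against 3.22% of all genes), and the 3 of these with the smallest p were Mrpl41, Mrpl40 and Mrpl13, at −0.60, −0.58 and −0.44. DESeq2 called 28 and limma-voom 30 lower, against 7.59% and 5.97% of all genes. In edgeR the count was 0 without 1 week 1, 8 weeks 1 or 8 weeks 3, 3 without 8 weeks 4, 4 without 1 week 2, 5 without 1 week 4, 8 without 1 week 3 and 37 without 8 weeks 2. Of all genes, these left-out fits called 0.394%, 0.446%, 0.291%, 1.16%, 2.42%, 2.41%, 2.44% and 6.98% lower, in the same order. After the length and GC correction the median of the mitochondrial ribosomal protein genes was −0.21. Only Mrpl35 of them was called, with 1.5% of all genes lower in that fit.

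Genes around translation were measured as well. Of 19 elongation factors and other messenger RNAs with a 5′ terminal tract, 18 were below 0, at a median of −0.34. In edgeR 0 were called and 8 were lower at an unadjusted p under 0.05, while DESeq2 called 4 lower and limma-voom 1. Of 25 genes of ribosome assembly, 24 were below 0, at a median of −0.23. In edgeR 0 were called and 11 were lower unadjusted, while DESeq2 called 4 and limma-voom 5 lower. Of all genes, for comparison with both lists, 14.3% were lower unadjusted in edgeR, and DESeq2 called 7.59% and limma-voom 5.97% lower. After the length and GC correction the medians of these 2 lists were −0.19 and −0.20. In that fit 2 and 10 of their genes were lower unadjusted, against 11.5% of all genes, and 0 were called.

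The 14 measured genes of growth control of translation had a median of 0.19. In edgeR 0 were called, with 2 lower and 6 higher unadjusted (14.3% and 13.5% of all genes), while DESeq2 called 1 lower and 2 higher and limma-voom 1 lower. After the length and GC correction their median was 0.06, with 1 lower and 0 higher unadjusted. For 10 genes of proliferation the median was 0.01, and edgeR called 0, with 1 lower and 1 higher unadjusted, DESeq2 called 1 higher and limma-voom 0. Their median after the correction was −0.02, with 0 lower and 0 higher unadjusted. Over all genes tested, DESeq2 called 1082 lower and 987 higher, and limma-voom 868 lower and 772 higher. No test compared the lists.

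Markers of the sorted cells and of other cells give the setting. Basal keratinocyte markers summed to 24682 to 29188 CPM at 1 week and 17490 to 25602 CPM at 8 weeks, and suprabasal ones to 16826 to 19469 and 19454 to 22117 CPM, with none of either list called. Fibroblast markers summed to 923 to 1161 CPM at 1 week and 400 to 776 CPM at 8 weeks, with Dcn of 5 called lower. Red blood cell markers summed to 3.38 to 13.7 CPM and 22.9 to 71.4 CPM, with Hbb-bs, Hba-a1 and Hba-a2 of 5 called higher. Leukocyte markers reached at most 8.19 CPM (3 of 6 measured), endothelial ones 7.34, melanocyte ones 3.83 and muscle and salivary ones (4 of 5 measured) 0.983 CPM, with none called. Total counts ran from 11747783 to 16807773 per library. A single gene, Gm42418, held 4.26% to 12.8% of a library's counts, with no order by age. Another, Ccnb1ip1, held 0.582% to 6.75% at 1 week, most in 1 week 4 and 1 week 1, and 0.741% to 1.12% at 8 weeks. Without those 2 libraries the median log2 fold change of the ribosomal protein genes was −0.29, and edgeR called 0 of them, with 18 lower at an unadjusted p under 0.05 (8.02% of all genes in that fit). The part of cell makeup and of these abundant RNAs in the lower level of ribosomal protein genes was not tested.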

How the data were processed

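RNA was measured in sorted buccal epithelial cells of 4 mice of 1 week and 4 of 8 weeks, with 11747783 to 16807773 counts per library. The deposited table holds raw counts per gene, size-factor scaled counts (a signal, not used for tests) and the authors' comparison, with a log2 fold change, a test score and p-values. Per the submitters' processing notes the authors used the build GRCm38, with TopHat2 2.1.1, cutadapt 2.10, DESeq2 1.26.0, bcl2fastq 2.20.0.422 and HTSeq 0.6.0 named as tools. How reads that match several genes were counted, the strand setting and the annotation release are not given in the sources used here. Every per-sample column matched a sample.

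From the counts, genes with too few reads were dropped (edgeR filterByExpr, minimum count 10, minimum total 15), leaving 14533. edgeR 4.0.16 (R 4.3.3) fitted age alone over all 8 libraries with TMM scaling and a quasi-likelihood F test, with p adjusted by Benjamini-Hochberg over all genes tested. The alternatives were DESeq2 1.42.0, limma 3.58.1 (voom with a weight estimated for each library), other scalings and filters, left-out libraries and replicate blocks. Splines (4 degrees of freedom) on transcript length and GC content from GENCODE M21 were also used. A pair of the alternatives was chosen after seeing the data, the same splines fitted without the ribosomal protein genes and a TMM-scaled sum for the share. Ratios of a copy to its parent used log2 of counts + 0.5 and an exact permutation test (SciPy 1.17.1). Scripts were checked on simulated counts.

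The members, gene lists, pairs and motifs were chosen with earlier results of these data known. Members named are those of tested pairs, those called, the 5 highest and 5 lowest fold changes, the 3 largest by CPM in each subunit and those not tested. Genes named for their place in the ribosome, for lying just outside the threshold or for an overlap were added after their values were seen. Samples are called replicates as the labels give separate animals. A gene of 1 list is not reported here.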

Additional observations from a re-analysis of the deposited data

Results flagged for a closer look

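In 11 of 174 groups of 4 libraries tested (members, copies and ages), 1 library stood apart from the other 3 by Dixon's criterion, which chance alone passes in about 1 of 20 groups. In 8 of the 11 it was 1 week 1, with the highest level of 1 week. It held Rps20 at 1251 CPM (others 899 to 932), Rps9 at 2023 (1440 to 1517), Rpl10 at 1187 (870 to 917), Rpl31 at 1422 (1035 to 1042), Rps4x at 1575 (1253 to 1289), Rpl36a at 636 (430 to 454), Rpl4 at 4175 (3492 to 3531) and Rps28 at 500.0 CPM (338 to 352). At 8 weeks, Rpl22l1 was apart in 8 weeks 1, at 46.4 CPM against 50.5 to 51.0. Rpl39l was at 1.34 CPM in 1 week 4 and at 0 in the other 3 libraries of that age. Rps4l was at 10.8 CPM in 1 week 2 against 5.25 to 5.43.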

How the results depend on the processing

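All 81 tested members kept a log2 fold change below 0 with each library left out, and under each scaling, filter, block and other tool in which they were tested, while the calls varied. Members called lower were 6 with library size alone, 3 with no filter, 57 with DESeq2, 42 with limma-voom, 0 with either length and GC correction, 0 with either replicate block, 0 without 1 week 1 and 1 week 4 together, and 0 to 54 with 1 library left out. Of all genes, higher and lower calls were 987 and 1082 with DESeq2, 772 and 868 with limma-voom, 183 and 218 with the length and GC correction, 193 and 225 with it fitted without the members, 78 and 83 with the titles' numbers as replicate block, 26 and 66 with the numbers in the library names as block, and 31 and 29 without 1 week 1 and 1 week 4. With 1 library left out they were 48 to 843 higher and 43 to 1048 lower, and lower calls were 255 with library size alone and 265 with no filter. The same-numbered libraries correlated at −0.31 to 0.00 in their departures from the mean of their age. So few pairs cannot decide whether the numbers pair the libraries. After correction the medians were −0.20 (small −0.22, large −0.18), or −0.21 (−0.23, −0.19) when fitted without the members, and Rpl29, Rps26 and Rps28 turned to 0.0121, 0.12 and 0.0140 (Rpl29 0.0045 and Rps26 0.11 when fitted without the members). Library size alone gave a member median of −0.33 and moved the median of all genes to 0.09. The copy to parent log2 ratio changed sign for Rpl22l1 (−0.0778 to 0.0789 with 1 library left out), Rpl36al (−0.14 to 0.0514, and 0.13 without 1 week 1 and 1 week 4) and Rps27l (−0.23 to 0.0014, and 0.12). For Rps4l it was −4.65 to −3.80 with 1 library left out, where the smallest possible exact p is 0.0571, −4.60 without 1 week 1 and 1 week 4, and −4.26 with the replicate block. The causes of these shifts were not tested. With 4 libraries an age and a spread between libraries that moves all members together, precision is limited by the number of mice. The part of sequencing depth was not tested.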
